A study of Mus musculus with 6 samples.

Results

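Among the open chromatin regions of mouse nephron progenitors, 2052 of 43523 were distal regions with a match to a Smad motif and none to a Fox motif. A region was taken as distal where the deposited table listed no promoter for it, and its motif names were those the authors listed beside it. Of all 29426 distal regions, 2757 held a Smad name, and the 705 of these that also held a Fox name were set aside. The 20391 distal regions with neither name served as the nearest comparison. The values were ATAC-seq counts, in which the transposase Tn5 cuts and tags DNA that is not packed in chromatin, so that a higher count means a more accessible region. The progenitors came from CD1 mice, either from embryos at E14.5 (embryonic day, when nephrons are forming) or from pups at P0 (the day of birth), and no genotype or treatment set the groups apart. Each library was made from 50000 cells out of up to 24 pooled kidneys of 1 litter, and each stage had 3 libraries, given by the design as biological replicates. Cells were pulled from the digested cortex on magnetic beads with antibodies to the integrin Itga8, so that other cells of the cortex could be carried along. A region lay in or within 2 kb of 8 of 10 nephron progenitor marker genes (Pax2 and Meox1 had none), of 8 of 12 stromal, 7 of 10 endothelial, 6 of 10 ureteric and 3 of 10 immune marker genes. In such bulk libraries, fewer cells with an open region and less opening per cell cannot be told apart.

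Smad proteins carry signals of the TGF-beta family from receptors at the membrane to DNA. Smad1, with its relatives Smad5 and Smad9, is activated by bone morphogenetic protein (BMP) receptors. Smad2 and Smad3 are activated by TGF-beta and activin receptors, and both branches share the partner Smad4. Smad proteins bind short DNA elements weakly and usually act with other transcription factors. In the developing kidney, BMP7 is a survival and proliferation signal of nephron progenitors, and BMP signalling through Smad proteins is known to prime them for differentiation.

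The members held 2820 Smad matches, 829 of Smad1, 830 of Smad2, 801 of Smad3 and 360 of Smad4, and scores ran from 12.0 to 17.1. The letters of a match could be read only where it fell in a promoter window of RefSeq (GRCm38.p6), which was the case for 11 members and for 306 Smad matches over all regions of the table. The matches below show the letters behind each name. Each is printed 5′ to 3′ on the strand of the match, with the match in capitals and up to 10 bases on either side in lower case. The place of a match was fitted to the letters and may be off by 1 base.
Smad1 in chr12:98573468-98575633, near the Kcnk10 start: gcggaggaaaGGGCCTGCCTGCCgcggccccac
Smad2 in chr12:51156375-51158133, near the Gm34745 start: ttctcctgtgCTCTGTCTGTgagaatgtgg
Smad3 in chr12:77552686-77553720, near the Gm35240 start: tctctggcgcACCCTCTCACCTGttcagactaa
Smad3 in chr3:121967438-121969141, near the Arhgap29 start: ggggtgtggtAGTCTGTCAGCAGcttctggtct
Smad4 in chr13:43364986-43366516, near the Sirt5 start: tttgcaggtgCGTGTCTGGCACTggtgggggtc
The letters CTG stand in each of these. TCTG stood in all 84 readable Smad2 matches, against 3.57% of windows of the same size moved by 60 bases, and in 67.6% of Smad1 and 43.3% of Smad3 matches. The matches were listed for their motif score and placed by their letters. The contrast therefore only describes the motifs and tests nothing. GTCT, the Smad element of textbooks, stood in 70% of Smad4 and 36.2% of Smad1 matches. Such short words are common: 96% of 32851 promoter windows of 300 bases held TCTG and 88% held GTCT on either strand, and the palindrome GTCTAGAC stood in 0.213%. The Smad2 example is also a region that changed: it counted 9.96, 12.2 and 8.52 CPM (counts scaled to the size of the library) in the E14.5 libraries and 21.7, 25.7 and 13.9 in the P0 libraries. All P0 values were above all E14.5 values. By edgeR's quasi-likelihood test, with Benjamini-Hochberg adjustment over all regions, this was a log2 change of 0.98 (SE 0.25) with an adjusted p of 0.0388. The region was not called without E14.5 replicate 3, where only 1 member was higher, a region on chromosome 4 described below.

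Between 6492996 and 12292629 counts per library fell in the regions of the table. Members took 2.74%, 3.05% and 2.74% of these at E14.5, and 3.24%, 3.64% and 2.90% at P0. The stages overlapped, since P0 replicate 3 lay under E14.5 replicate 2, and the means were 2.84% ± 0.179 and 3.26% ± 0.37 (SD, n = 3). The difference of 0.417 percentage points was 0.229 without P0 replicate 2. The 95% Wilson intervals of these shares, which cover counting error only, were narrow beside the spread of the libraries: 2.725% to 2.746% for E14.5 replicate 1 and 3.621% to 3.650% for P0 replicate 2. As a share of the counts in distal regions alone, members took 7.05% ± 0.162 at E14.5 and 7.43% ± 0.356 at P0. A member counted a median of 95 to 137 reads in a library, and only 1 member fell under 10 in any library. P0 replicate 2, the shallowest library, and P0 replicate 3, the deepest, stood farthest apart within a stage: their log2 CPM correlated at 0.702 over the 2052 members, which share libraries and depth. E14.5 replicate 2 and P0 replicate 3, of different stages, correlated at 0.886, more than any pair of the same stage. The share of counts and the calls over all regions, all members and the distal comparison sets were therefore also made with each library left out. So were the calls by Smad name, in the Smad3 class described below and in the named regions. The counts by annotation, accessibility class, other motif names and gene list were not.

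Most members did not pass the test between stages, and those that did moved both ways. With edgeR's quasi-likelihood test and adjustment over all regions, 46 members were more accessible at P0 and 34 less, 80 in all or 3.9%. Over all regions of the table, 4.73% were called, 1.79% higher and 2.94% lower. Calls toward P0 made up 2.24% of members and calls toward E14.5 1.66%. The share of members called was below that of all regions here, but above it without E14.5 replicate 2 (7.55% beside 6.86%). It stayed below that of distal regions in that fit, with 9% of those with neither name and 9.49% of all distal regions called. Of all distal regions 6.59% were called, 2.46% higher and 4.13% lower. Among distal regions with neither name, 6.07% were called, 2.64% higher and 3.43% lower, and among distal regions with a Fox name 8.89%, 2% higher and 6.89% lower. At an unadjusted p under 0.05, 280 members were higher and 120 lower, 19.5% in all, beside 18.7% of all regions and 22.9% of distal regions with neither name. Every library of P0 lay above all of E14.5 in 14.3% of members and below them in 7.46%, beside 11.8% and 12.4% of all regions and 15.9% and 11.6% of distal regions with neither name. The median log2 fold change of the members was 0.17, beside 0.01 for all regions and 0.11 for distal regions with neither name, and 66.1% of members had a positive value, beside 51.1% and 60.4%. Of the called members 57.5% were higher at P0. With library totals in place of TMM scaling, which moved the median of all regions to 0.07, 52 were higher and 25 lower, so that 67.5% were higher.

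**Figure D1:**
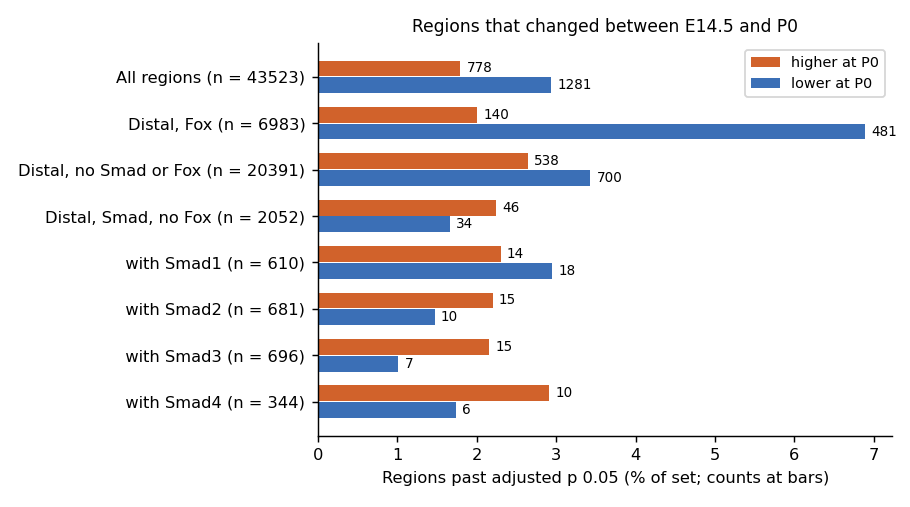
Bars give the percentage of each set of regions (vertical axis, with its size) that was higher (orange) or lower (blue) at P0 with an adjusted p under 0.05, and the number at each bar is the count of regions. Among distal regions with a Smad and no Fox name, 46 were higher and 34 lower; Fox regions had 481 lower and 140 higher.

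These counts rested strongly on single libraries. Without E14.5 replicate 3, only 8 members were called (1 higher, 7 lower), and without P0 replicate 1, 11 (3 and 8). Without E14.5 replicate 1, 33 were called (9 and 24). Calls over all regions fell as well in these 3 fits, from 2059 to 339, 474 and 1099. Without E14.5 replicate 2, 155 members were called, 121 of them higher and 34 lower, and 71 of the 80 were among them. Calls over all regions rose to 2987 in that fit. The median change behaved otherwise: it was 0.00 without P0 replicate 2, with 50.2% of members above 0, and 0.27 without P0 replicate 3. The excess of positive values in the members was thus not present without P0 replicate 2, while 35 members were still higher and 30 lower in that fit.

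**Figure D2:**
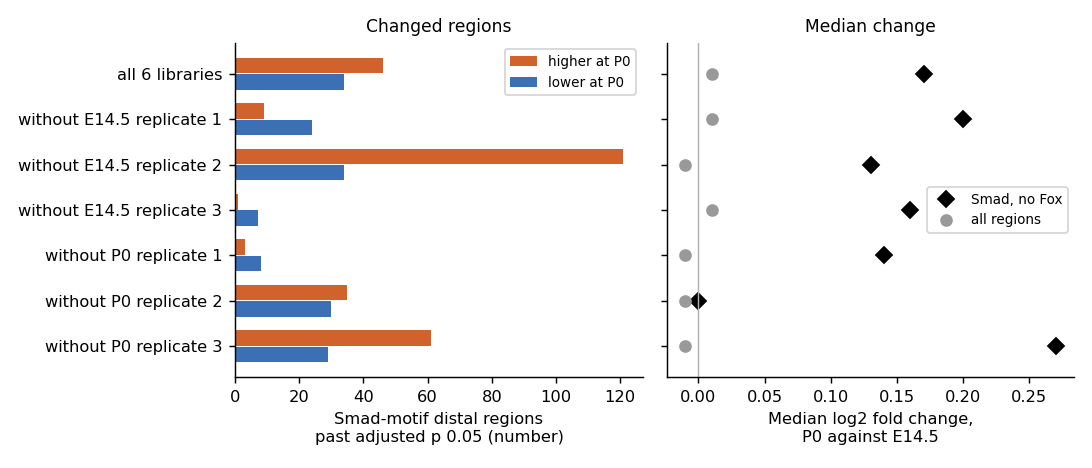
The left panel counts the members past the threshold in each direction with all 6 libraries and with each left out, and the right panel gives the median log2 fold change (P0 against E14.5) of the members (diamonds) and of all regions (circles). The count ran from 8 to 155, and the median of the members from 0.00 without P0 replicate 2 to 0.27 without P0 replicate 3.

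Calls ran both ways under each of the 4 Smad names. Of the 610 members with a Smad1 match, 14 were higher and 18 lower at P0, with a median log2 fold change of 0.11. Of the 681 with Smad2, 15 were higher and 10 lower (median 0.16). Of the 696 with Smad3, 15 were higher and 7 lower (median 0.21), and of the 344 with Smad4, 10 were higher and 6 lower (median 0.12). The shares called were 5.25% for Smad1, 3.67% for Smad2, 3.16% for Smad3 and 4.65% for Smad4, beside 4.73% of all regions and 6.59% of distal regions. The 1217 members with Smad2 or Smad3 matches and no Smad1 match had 23 higher and 12 lower (2.88% called). The 503 with Smad1 and neither Smad2 nor Smad3 had 12 and 14 (5.17%). A motif name does not show which Smad, if any, was bound, and binding was not tested. The difference between the names was not tested, as members are not replicates, and single libraries turned these values. Without E14.5 replicate 2, Smad1 members had 36 higher and 17 lower, and Smad2 members 47 and 9. Without E14.5 replicate 3, Smad1 had 0 higher and 6 lower, Smad2 1 and 2, Smad3 1 and 0, and Smad4 0 calls in either direction. Smad3 members had 29 higher and 5 lower without P0 replicate 3. Without P0 replicate 2, the median of Smad3 members was -0.03 and that of Smad1 members 0.00. Of the 1654 members with 1 Smad match 3.81% were called, and of the 398 with more 4.27%.

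Within the Smad3 members, a single class of match stood apart from the others. Of the 801 Smad3 matches, 336 (41.9%) had the score 12.5, and the next most frequent score, 12.1, was held by 87. These 336 matches lay in 273 members, a class that was formed after its values had been seen and is described here without a test. The class counted a median of 11.5, 7.01 and 9.11 CPM in the E14.5 libraries and 11.1, 16.8 and 6.08 in the P0 libraries. Both the highest and the lowest library were thus of P0: replicate 2 was the highest of the 6 in 241 of the 273 (88.3%) and replicate 3 the lowest in 178 (65.2%). In the other 1779 members P0 replicate 2 was highest in 32.9% and P0 replicate 3 lowest in 23.2%. Of the class 87.9% had a positive log2 fold change with a median of 0.27, yet 0 were called higher and 2 lower by edgeR (0.733%, beside 4.73% of all regions), with 9 higher and 6 lower at an unadjusted p under 0.05 (5.49%, beside 18.7%) and 0 higher and 3 lower by both DESeq2 and limma-voom. Without P0 replicate 2 the median of the class was -0.11, and without P0 replicate 3 it was 0.58. In the fit without P0 replicate 3, 7 of the class were called higher and 1 lower (2.93%, beside 5.16% of all regions).

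Of 24 classes of Smad name and score with at least 30 members, this one had the widest range of library medians, 1.46 on the log2 scale, and the next had 0.58. Members with Smad3 at other scores, 423 in all, had a median log2 fold change of 0.14 with 15 higher and 5 lower. Without the class, the 1779 members left held all 46 of the calls higher and 32 of those lower, with a median of 0.14 and 62.7% above 0. The class also differed in where it lay. In 57 of its members 2 or 3 such matches stood in the same region, always on the same strand, and 56 of the 63 neighbouring pairs (88.9%) lay a whole multiple of 212 bp apart: 26 at 212, 18 at 424 and 7 at 636. Of the class 9.52% lay on X, beside 2.47% of the other members, 72.9% lay between genes, beside 56%, and 1.47% in exons, beside 8.83%. The Smad3 match printed above from chr12:77552686-77553720 is of this class, with 6.17, 4.73 and 4.44 CPM at E14.5 and 6.35, 14.7 and 3.39 at P0. No repeat annotation was used here, and how reads from near-identical copies were placed is not given in the sources used here. The counts of these evenly spaced members are therefore uncertain, and whether they lie in repeat copies was not tested.

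Some regions without a Smad name also had P0 replicate 2 highest, and E14.5 replicate 2 and P0 replicate 3 lowest. Among distal regions with neither name, those with a Pax6 match of score 12.3 (326 regions) had median deviations from their own mean of 0.20, -0.44 and -0.03 at E14.5 and 0.21, 0.76 and -0.62 at P0. The Smad3 class had 0.27, -0.44 and -0.10 at E14.5 and 0.20, 0.80 and -0.66 at P0. The 2 sets share no region.

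**Figure D3:**
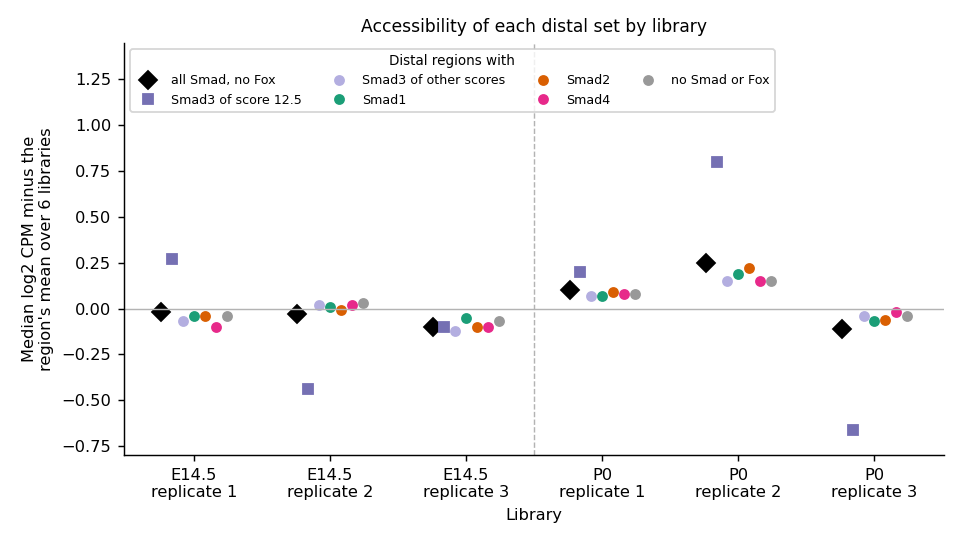
For each library (horizontal axis), points give the median over a set of regions of log2 CPM minus the region's mean over the 6 libraries. The squares, Smad3 matches of score 12.5, fall to -0.66 in P0 replicate 3 and reach 0.80 in P0 replicate 2, while members with Smad1, Smad2, Smad4 or Smad3 at other scores stayed near the distal regions with neither name.

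Of the 6 largest gains, 4 were intergenic, as were 4 of the 6 largest losses and 58.2% of all members. On chromosome 14 (mm10, 36870108 to 36871202), 3.73 kb from Ccser2, a region with 1 Smad4 and 1 Maz match counted 4.27, 4.82 and 3.15 CPM at E14.5 and 15.3, 11.2 and 10.7 at P0. The groups did not overlap, and the change was the largest gain of all 2052 members, 1.60 on the log2 scale (SE 0.29, adjusted p = 0.00628). It was not past the threshold without E14.5 replicate 3 or P0 replicate 1, with adjusted p-values of 0.0536 and 0.0619. On chromosome 4 (31569002 to 31570607), a region with Smad2 and Smad3 matches lay between Epha7, 2601 kb away, and Map3k7, 393 kb away. Epha7 is an ephrin receptor, and Map3k7 is the kinase TAK1 that acts below TGF-beta and BMP receptors. The region counted 8.54, 15.0 and 10.6 CPM at E14.5 and 29.6, 32.8 and 30.8 at P0. It was thus the most accessible of the largest gains. Its change on the log2 scale, 1.44 (SE 0.22, adjusted p = 0.00324), stayed past the threshold under every alternative run. On chromosome 16 (63456370 to 63457171), 86.4 kb from Epha3, also an ephrin receptor, a region with Smad1 and Smad2 matches rose from 7.79 ± 1.9 to 18.8 ± 2.21 CPM (mean ± SD of 3 libraries), again without overlap. Its log2 fold change was 1.26 (SE 0.24, adjusted p = 0.00891), and 1.08 without E14.5 replicate 3, where the adjusted p was 0.0683.

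The rest of the 6 largest gains had mean P0 levels under 10 CPM. A region on X (12951103 to 12951852), 12.6 kb from AA414768 and 119 kb from the deubiquitinase gene Usp9x, held Smad2, Smad3 and Bach2 matches and had 2.89 ± 1.17 CPM at E14.5 and 7.34 ± 0.992 at P0 (log2 fold change 1.32, SE 0.35). A region in an intron of Chst11, a chondroitin sulfotransferase gene, on chromosome 10 (82999383 to 83000710) held matches of Smad3, Six2, Sall4, Sox10, Maz and E2f names and had 3.63 ± 1.31 and 9.17 ± 2.64 CPM (1.31, SE 0.35). A region on chromosome 3 (138387188 to 138387783) in an exon of the pseudogene Adh6-ps1 held a Smad1 match of score 16.0 and had 3 ± 0.554 and 7.17 ± 0.84 CPM (1.24, SE 0.32). In each the libraries of the stages did not overlap, with adjusted p-values of 0.0456, 0.0437 and 0.0373 by edgeR. They lost their call when E14.5 replicate 1, E14.5 replicate 3, P0 replicate 1 or P0 replicate 2 was left out, with adjusted p-values up to 0.221, 0.164 and 0.175, by limma-voom with 0.0533, 0.0656 and 0.0533, and with a replicate block with 0.0571, 0.0571 and 0.0648. The X region also lost it without P0 replicate 3 (adjusted p = 0.0524).

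Of the 34 losses, 18 held Smad1 matches (52.9%), as did 14 of the 46 gains (30.4%) and 29.7% of all members. Members with Smad1 were nonetheless lower about as often as other regions: 2.95%, beside 2.94% of all regions and 3.43% of distal regions with neither name. The shares lower were 1.47% for Smad2, 1.01% for Smad3 and 1.74% for Smad4. The largest loss lay in an intron of Myot, the gene of the muscle protein myotilin, on chromosome 18 (44348536 to 44349981), and counted 12.2, 12.4 and 15.6 CPM at E14.5 and 3.44, 4.24 and 3.55 at P0. The stages were far apart, and the log2 fold change was -1.85 (SE 0.27, adjusted p = 0.00242). On chromosome 3 (150648958 to 150650551), a region held 2 Smad1 matches and 1 Meis1 match. It lay between the adhesion receptor genes Adgrl2 (1660 kb away) and Adgrl4 (787 kb). The region counted 16.0, 14.7 and 13.7 CPM at E14.5 and 5.10, 3.93 and 4.82 at P0. This log2 fold change was -1.67 (SE 0.25, adjusted p = 0.00265). A region in an intron of Cyria, a regulator of actin remodelling, on chromosome 12 (12299067 to 12300204) had 14.1 ± 2.42 CPM at E14.5 and 4.69 ± 1.01 at P0 (log2 fold change -1.59). On chromosome 8 (96287677 to 96289618), a region with Smad1 and E2f3 matches had 21.2 ± 3.94 and 7.23 ± 0.802 CPM (-1.56). It lay between Got2, a mitochondrial aminotransferase gene 399 kb away, and the cadherin gene Cdh8, 2735 kb away. On chromosome 14 (113765143 to 113766579), a region with Smad1 and Smad2 matches had 15.4 ± 0.743 and 5.35 ± 0.578 CPM (-1.53). It lay between Slitrk5 (2082 kb away) and the glypican gene Gpc5 (1326 kb). These 5 losses stayed past the threshold under every alternative run, which was true of 1 of the 6 largest gains.

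The other region among the 6 largest losses held a Smad3 match and lay on chromosome 13 (72299360 to 72300078). It was between the Iroquois homeobox genes Irx1 and Irx2, 336 kb from the first and 324 kb from the second. It counted 9.61, 7.71 and 10.0 CPM at E14.5 and 1.46, 4.99 and 3.08 at P0. The P0 libraries differed widely among themselves, and the log2 change, -1.55 (SE 0.38, adjusted p = 0.029), missed the threshold in 4 alternatives. The adjusted p was 0.0939 without E14.5 replicate 1, 0.156 without E14.5 replicate 3, 0.139 without P0 replicate 1 and 0.0514 with a replicate block.

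**Figure D4:**
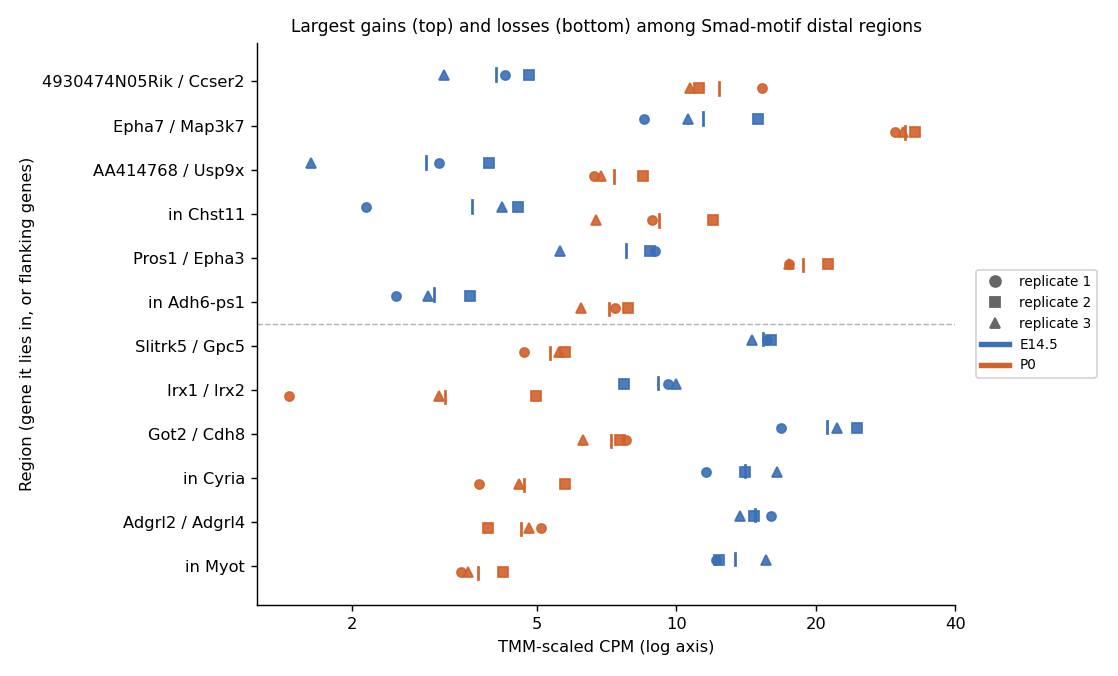
Each row is a member region named by the gene it lies in or the genes beside it, the horizontal axis gives TMM-scaled CPM on a log scale, points are libraries (shape: replicate; colour: stage) and ticks are stage means. In the 6 gains (top) every P0 library lies right of every E14.5 library, and in the 6 losses (bottom) left of it; the Irx1 region has the widest spread at P0, from 1.46 to 4.99.

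Among the 46 members higher at P0, 15 overlapped a protein-coding gene of the RefSeq table, and so did 15 of the 34 lower (that of Serpinb1c is intergenic in the deposited annotation). By the deposited annotation, 33.9% of all members lay in genes outside exons and 7.85% in exons. Whether the called members differ from these in the genes they overlap was not tested. From the largest gain down, the genes with a gain were Chst11, Cntnap2, Wwox, Cacna2d1, Gramd1b, Lamp2, Trpm6, Ptprd, Mapre2, Hs6st1, Col15a1, Pclo, Dctd, Tenm2 and Trabd2b. They include Cntnap2, Pclo and Tenm2, known from neurons, Lamp2, a lysosomal membrane protein, and Col15a1, a basement membrane collagen. From the largest loss up, the genes with a loss were Myot, Cyria, Dnah7a, Cpne4, Arpp21, Serpinb1c, Olfm4, Nckap5, Tmem132b, Epha6, Sema6d, Dtd1, Atp10a, Dner and Opcml. They include Dner and Opcml, also known from neurons, Sema6d, a semaphorin guidance cue, and Epha6, an ephrin receptor. All groups of these 80 members were free of overlap between the stages. Their adjusted p-values ran from 0.00242 to 0.048, and their log2 fold changes from 0.74 to 1.60 and from -1.85 to -0.73.

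The most accessible members did not pass the test. A region on chromosome 6 (47760201 to 47764538), 31.6 kb from the chaperone gene Pdia4, had 112 ± 17.1 CPM at E14.5 and 120 ± 23.3 at P0, and its log2 change was 0.10 (SE 0.22) with an adjusted p of 0.868. The table lists it a second time with an end 10 bases earlier, at 47764528, and there it had 109 ± 15.2 and 115 ± 22.6 CPM. The other region among the 3 most accessible, on chromosome 5 (15574715 to 15579255) in Gm21083, lies 39.8 kb from Speer4d, a gene of a family of similar copies. Whether reads from such copies fell in this region was not tested, so its count is uncertain. It had 105 ± 30.1 CPM at E14.5 and 123 ± 46.6 at P0, and P0 replicate 3 was its lowest library with 69.7.

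Genes of the TGF-beta and BMP pathway (5 lists) and of nephron progenitors, nephron differentiation and developmental timing (3 lists) were searched for members beside them. Of these 139 genes, 16 had a member in or within 50 kb of the gene, 18 members in all, and 0 of the 18 passed edgeR's test, beside 4.73% of all regions. Among them, 1 was higher and 1 lower at an unadjusted p under 0.05, and DESeq2 and limma-voom also called 0 of the 18. Of the ligands, Bmp5, Bmp6, Inha and Amh had 1 member each. The Bmp5 member, a Smad4 region 9.42 kb from the gene on chromosome 9 (75909733 to 75910944), counted 13.3, 13.6 and 13.3 CPM at E14.5 and 9.27, 7.57 and 7.34 at P0. All P0 values were below all E14.5 values, but the log2 change, -0.73 with an SE of 0.23, missed the threshold with an adjusted p of 0.0864. The Inha member (chromosome 1, 75558856 to 75560184, overlapping an exon in Slc4a3) had 13.5 ± 1.09 and 15.6 ± 1.38 CPM, a log2 fold change of 0.22 with an adjusted p of 0.63.

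Of the receptors, only Bmpr1a, a type I BMP receptor, had members nearby. One (chromosome 14, 34377764 to 34379354, 31.7 kb away, with a Smad1 match) counted 17.2, 10.7 and 15.9 CPM at E14.5 and 24.3, 18.8 and 18.9 at P0, a log2 fold change of 0.51 (SE 0.23) with an adjusted p of 0.241. The P0 values were all above those of E14.5, within a list of 2 that differed in sign: the second, on the same chromosome (34540165 to 34542140, overlapping an exon in Ldb3), had 28.5 ± 6.46 and 24.7 ± 9.24 CPM and overlapped between the stages (-0.19, adjusted p = 0.754). Among Smads and their regulators, 4 members near Ski, Smad4 and Smad7 had log2 fold changes between -0.06 and 0.07. The member 1.16 kb from Ski, a repressor that binds Smads, had 28.9 ± 5.73 and 28.1 ± 2.64 CPM (chromosome 4, 155148725 to 155152918). In an intron of Smad4 itself, a region with Smad1, Smad2 and Smad4 matches (chromosome 18, 73689291 to 73694092) reached 24.7 CPM at E14.5 and 24.4 at P0. Its stages overlapped, and its log2 fold change was -0.05.

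Extracellular inhibitors of the ligands had 3 members, near Bmper, Chrd and Sostdc1, with log2 fold changes from 0.12 to 0.53. That near Chrd, the BMP antagonist chordin (chromosome 16, 20701229 to 20702965), had 16.3 ± 2.8 and 20.5 ± 4.12 CPM with an adjusted p of 0.444. Of the target genes, Id1, a transcription inhibitor induced by BMP, and Tgfbi, an adhesion protein induced by TGF-beta, had 1 member each, with log2 fold changes of 0.15 and 0.22. The Tgfbi member (chromosome 13, 56581404 to 56583563) had 17.5 ± 0.558 and 20.2 ± 7.42 CPM, with P0 replicate 2 lowest at 11.7. Of 24 nephron progenitor genes, Dpf3 and Robo2 had 1 member each, and none of 16 nephron differentiation genes had one. The Dpf3 member on chromosome 12 (83287876 to 83291515) counted 13, 6.13 and 6.42 CPM at E14.5 and 11.1, 17.3 and 5.45 at P0, the order of libraries seen in the Smad3 class. Of the timing genes, Lin28b had a member 2.58 kb away (chromosome 10, 45373074 to 45374039), with a log2 fold change of -0.14 and an adjusted p of 0.851. Near the 5 lists of cell type markers lay 9 members (3 stromal, 3 endothelial, 3 ureteric, 0 immune, 0 nephron progenitor), and 0 of them passed edgeR's, DESeq2's or limma-voom's test, with 1 lower at an unadjusted p under 0.05.

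By annotation the members were close to other distal regions. Of the members, 58.2% lay between genes, 33.9% in genes outside exons and 7.85% in exons, beside 57.7%, 33.9% and 8.38% of all distal regions. They were longer, with a median of 1656 bp (middle 50% from 1229 to 2169) beside 1477 bp. Split into 5 classes of rising accessibility, cut on all distal regions, 2.62%, 2.42%, 4.63%, 3.43% and 5.84% of members were called, beside 3.74%, 5.74%, 6.89%, 7.51% and 6.99% of the distal regions with neither name in the same classes. The members thus had the smaller share in each class. On X lay 70 members, of which 2 were called, both higher, and 87.1% had a positive log2 fold change. That is 2.86% called, beside 5.11% of the 607 distal regions with neither name on X, of which 74.1% were positive, and 4.73% of all regions, of which 51.1% were; 26 of the 70 were of the Smad3 class. FANTOM enhancers overlapped 228 members (11.1%, beside 8.64% of distal regions), of which 3 were higher and 6 lower (3.95% called, beside 4.73% of all regions) with a median log2 fold change of 0.02. Of the 1743 distal regions with neither name that overlapped one, 35 were higher and 19 lower (3.1%). Other motif names shared the region in all but 999 members. Sall names were in 19.2% of members and 12% of distal regions, Maz names in 18.9% and 13.2%, E2f names in 10.3% and 6.32%, Meis names in 7.99% and 6.77%, and Six2, the factor that keeps nephron progenitors undifferentiated, in 3.27% and 3.19%. Sox names were in 13.8% and 15.1%. Every member has a motif by its choice, while 41.1% of distal regions list none. Among the 8303 distal regions with neither name that list any motif, the shares of these names were above those of members, with 26.9% for Sall, 30.3% for Maz, 14.8% for E2f, 7.27% for Six2 and 29.1% for Sox. Those regions were in turn chosen to hold a name other than Smad. Of the 164 members with a Meis name, 41 (25%) had a Meis match that overlapped a Smad match, as did 94 of 394 with Sall (23.9%) and 15 of 284 with Sox (5.28%).

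Of the 2820 matches, 64.3% lay in the inner 50% of their region by length, beside 65.1% of all motif matches in distal regions. The share was 63.6% for Sox, 63.7% for AP-1, 63.8% for Fox, 64.2% for Maz, 65.4% for Sall, 67.3% for Pax, 67.5% for Meis, 75.1% for E2f and 77.7% for Six2 matches, and these differences were not tested. The median distance from the centre was 296 bp. Names overlapped each other: in 68 of 83 regions with both Smad1 and Smad2 (81.9%) and in 44 of 55 with both Smad2 and Smad4 (80%), the matches covered shared bases, so that a region with several names need not hold several sites. Of the 242 members with more than 1 Smad name, 5.79% were called, 8 higher and 6 lower, beside 3.65% of members with 1 name, 4.73% of all regions and 6.59% of distal regions.

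**Figure D5:**
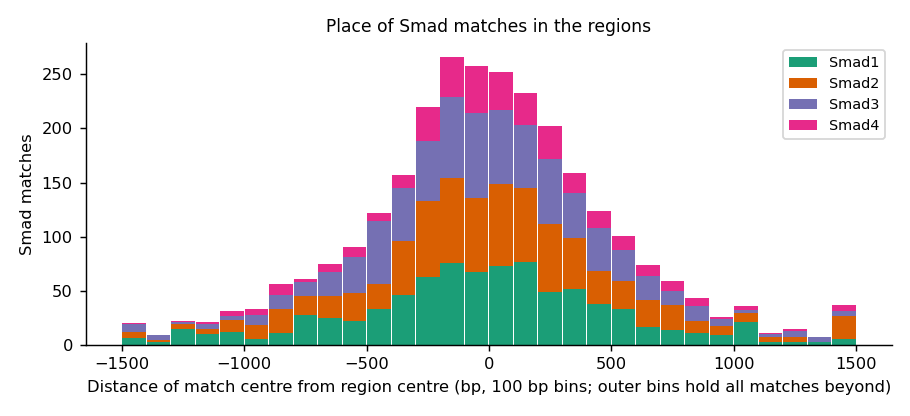
Stacked bars count the Smad matches of each name by the distance of the match from the centre of its region (horizontal axis, bp, in 100 bp bins, with all matches farther out in the outer bins). The matches of all 4 names gather around the centre, at a median distance of 296 bp.

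The authors' deposited table gives its own comparison of the stages. It classes 75 members as opening and 29 as closing toward P0, with adjusted p-values in the authors' deposited table up to 0.0999. These are 3.65% and 1.41% of members, beside 2.86% and 2.48% of all regions in the authors' deposited table. At the threshold of 0.05, 29 members (1.41%) pass in the authors' deposited table, beside 1.39% of all regions, and 28 of these 29 are among the 80 called here. Of the 46 members called higher above, 45 are classed as opening in the authors' deposited table, and of the 34 called lower, 28 are classed as closing there.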

How the data were processed

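ATAC-seq was made from 6 libraries of Itga8-selected CD1 nephron progenitors, 3 at E14.5 and 3 at P0, with columns matched to libraries by title. Per the file headers, the deposited table holds a whole-number count per region and library. The authors also deposited a log2 fold change, scores (a t statistic and the motif scores) and a p-value with its adjusted value, made with a model not given in the sources used here. The build is mm10, per the submitters' processing notes. The aligner, peak caller, Tn5 shift and handling of duplicate or multiply mapped reads are not given in the sources used here.

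Of 45489 rows, 1966 repeated a region and were dropped. All 43523 regions were tested with edgeR 4.0.16 (R 4.3.3) by the quasi-likelihood test with TMM scaling, filterByExpr (0 regions removed) and Benjamini-Hochberg adjustment over all regions, threshold 0.05. The steps were tested on simulated data. CPM values are TMM-scaled. Motif letters came from RefSeq promoter windows (GRCm38.p6), since no genome was used here, so the regions named for their change are printed without sequence. Genes, distances and gene bodies are from the RefSeq table of that assembly, and a gene may have several nearby regions.

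Named were the 6 largest gains and losses past the threshold without overlap between stages, the 3 members of highest CPM, and for each of the first 5 gene lists the nearby member (within 50 kb) of highest CPM. The other members near listed genes, the called genes described in a clause, the Smad2 region shown with its letters and the Smad3 class of score 12.5 were chosen after their values were seen. The members and lists were chosen with earlier results of these data known. Alternatives were other scalings, DESeq2 1.42.0, limma-voom (limma 3.58.1), other filters, a replicate block, leaving out each library and other definitions of the members. The authors' links of regions to genes by enhancer predictions were not used.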

Additional observations from a re-analysis of the deposited data

How the results depend on the processing

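With a library left out, the members called ran from 8 to 155 (main 80), those higher from 1 to 121 (46), those lower from 7 to 34 (34), and the median log2 fold change from 0.00 to 0.27 (0.17); the cause was not tested. Allowing a Fox name gave 122 calls with 62 lower, requiring more than 1 Smad name 14 (8 higher, 6 lower) and a threshold of 0.1 gave 158 (97 higher, 61 lower), as other regions or a looser limit were counted. The other scalings, tests and filters gave 71 to 117 calls. Without the Smad3 class, an alternative chosen after seeing the data, there were 78 calls and a median of 0.14. With the replicate block, 71 members were called (42 higher, 29 lower) and 63 of these were among the 80. Same-numbered libraries deviated with correlations of 0.0666, -0.14 and 0.0767, and differently numbered ones with -0.241 to 0.192. With 3 libraries a stage, these values cannot settle whether equal numbers pair the libraries. Of the 8 named regions that were not called, 4 changed sign with a library left out: the Pdia4 region ran from -0.07 (P0 replicate 2 out; -0.04 with E14.5 replicate 2 out) to 0.19, its shorter copy from -0.09 (-0.05 with E14.5 replicate 2 out) to 0.17, the Bmpr1a region in Ldb3 from -0.55 to 0.01 (P0 replicate 2 out; 0.00 with E14.5 replicate 3 out), and the Ski region from -0.20 to 0.10 (E14.5 replicate 3 out; 0.01 with P0 replicate 1 out, and 0.03 with total-count scaling). The share of counts in members, 0.417 percentage points higher at P0, was 0.229 without P0 replicate 2 and up to 0.597 without P0 replicate 3. With 3 libraries a stage and 95 to 137 counts per typical member, a member that missed the threshold may still have changed.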

Other observations

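VISTA elements, DNA segments tested for enhancer activity in mouse embryos, overlapped 24 members (1.17%, beside 0.86% of distal regions), and 0 of them passed edgeR's, DESeq2's or limma-voom's test, with 2 higher and 1 lower at an unadjusted p under 0.05. Of all regions 4.73% passed edgeR's test. Of these 24, chosen here after their values were seen, the one nearest to a gain was a Smad3 region between Fbxo8 (239 kb away) and Hand2 (486 kb) on chromosome 8 (56832753 to 56834884). It counted 10.2, 9.37 and 8.87 CPM at E14.5 and 17, 16.2 and 10.7 at P0, a log2 change of 0.62 with an SE of 0.24 (adjusted p = 0.172). The one nearest to a loss lay between Vxn and Mybl1 on chromosome 1 (9648291 to 9650052), with 55.5, 46 and 57.8 CPM at E14.5 and 33.1, 30.9 and 48.9 at P0. Its log2 change was -0.49 with an SE of 0.22 (adjusted p = 0.235).

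A few members held many Smad matches. The member with the most, 49, lay on chromosome 9 (121929447 to 121932221), 13.1 kb from Cyp8b1, an enzyme of bile acid synthesis. It counted 9.25, 10.2 and 17.5 CPM at E14.5 and 8.12, 21.8 and 6.47 at P0. The next, with 32 matches, lay on chromosome 15 (12098313 to 12099786), 17.8 kb from Zfr, and counted 3.8, 2.89 and 3.97 CPM at E14.5 and 4.69, 7.72 and 2.21 at P0. In both, P0 replicate 2 was the highest library and P0 replicate 3 the lowest, as in the Smad3 class of the report, and neither passed the test (adjusted p of 0.962 and 0.657 by edgeR).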
